A study of Homo sapiens with 24 samples.

Results

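The genes described here are 9 members of the 2 pathways of antigen presentation by the major histocompatibility complex (MHC), out of 26249 genes in the deposited tables. They were chosen by name: CD74, HLA-DRA, HLA-DPA1, HLA-DMA and CIITA for class II, and HLA-B, HLA-C, HLA-E and B2M for class I. The choice was made with their levels in H929 and MM1S and their drug responses already known, so the difference between the lines is given as a description with no test. The 24 libraries came from H929 and MM1S, established human multiple myeloma lines, and were made with a kit that reads the 3′ ends of transcripts (QuantSeq). The lines were treated with DMSO, the vehicle, or with YKL-5-124, a compound that the labels give by code name and the study's title ties to inhibition of CDK7, a kinase of transcription and the cell cycle, for 6 or 24 h. The 8 groups were thus H929 with DMSO or YKL-5-124 (YKL from here on) at 6 and 24 h, and MM1S with DMSO or YKL at 6 and 24 h, with 3 libraries each. H929 samples carried a labelled dose of 83 nM and MM1S samples 98 nM, DMSO samples included, so line and dose cannot be told apart in the responses. Each line is a single culture-adapted population, and the labels do not say that the 3 libraries of a group came from separate cultures, so a p-value here stands for the spread among these libraries alone, and that spread may be technical.

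MHC class I molecules pair a heavy chain (such as HLA-B, HLA-C or HLA-E) with β2-microglobulin (B2M) and show peptides from inside the cell to CD8 T cells and natural killer cells, in nearly all nucleated cells. MHC class II molecules pair an α with a β chain, are held in the endoplasmic reticulum by the invariant chain CD74, receive peptides with the help of HLA-DM, and are made chiefly by B cells, dendritic cells and macrophages. Their genes need the coactivator CIITA, which binds the factors RFX and NF-Y on the X and Y boxes of class II promoters and which is normally switched off when B cells become plasma cells, the cells that myeloma derives from. In bulk RNA, fewer cells with a transcript and less transcript per cell cannot be told apart.

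The promoters of the members were searched for the exact letters of these boxes and of some others. The RefSeq windows of GRCh38.p14, a later build than the hg19 of the expression values, matched 6 of the 9 members. HLA-DRA, CIITA and HLA-E are named only. The 250 bases before the start site are printed 5′ to 3′ on the strand of the gene, with capitals for the letters of an X box core (AGCAAC), a Y box (CTGATTGG), an inverse CCAAT box (ATTGG), a kappa B element (GGGGATTC) or an interferon-stimulated response element (GAAA, any 2 bases, GAAA), found on either strand.
CD74, chr5:150412911-150413160, minus strand: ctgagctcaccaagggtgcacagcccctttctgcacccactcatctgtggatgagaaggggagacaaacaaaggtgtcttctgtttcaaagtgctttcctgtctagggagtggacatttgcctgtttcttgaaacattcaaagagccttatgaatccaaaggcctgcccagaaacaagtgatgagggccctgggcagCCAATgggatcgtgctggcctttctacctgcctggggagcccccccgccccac
HLA-DPA1, the second of its 2 windows, chr6:33073650-33073899, minus strand: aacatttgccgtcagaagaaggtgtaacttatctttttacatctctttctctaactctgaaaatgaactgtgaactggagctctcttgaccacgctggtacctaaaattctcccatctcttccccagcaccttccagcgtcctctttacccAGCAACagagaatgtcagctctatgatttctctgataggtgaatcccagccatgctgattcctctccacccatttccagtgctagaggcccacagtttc
HLA-DMA, chr6:32953098-32953347, minus strand: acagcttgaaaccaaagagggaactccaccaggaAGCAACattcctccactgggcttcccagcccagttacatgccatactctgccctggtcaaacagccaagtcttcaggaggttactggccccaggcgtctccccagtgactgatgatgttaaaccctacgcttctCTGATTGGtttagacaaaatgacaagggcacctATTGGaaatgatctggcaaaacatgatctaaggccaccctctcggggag
HLA-B, chr6:31357180-31357429, minus strand: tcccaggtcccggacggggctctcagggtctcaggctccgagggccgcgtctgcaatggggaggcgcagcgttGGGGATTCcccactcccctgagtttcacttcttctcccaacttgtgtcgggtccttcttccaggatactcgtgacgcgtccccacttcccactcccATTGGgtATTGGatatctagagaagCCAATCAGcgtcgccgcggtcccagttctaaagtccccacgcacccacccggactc
HLA-C, chr6:31272093-31272342, minus strand: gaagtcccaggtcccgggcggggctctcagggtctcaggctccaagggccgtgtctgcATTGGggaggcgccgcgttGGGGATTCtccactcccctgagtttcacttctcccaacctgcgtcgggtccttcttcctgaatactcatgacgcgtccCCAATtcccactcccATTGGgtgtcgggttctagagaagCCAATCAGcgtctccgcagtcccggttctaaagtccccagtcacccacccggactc
B2M, chr15:44711267-44711516, plus strand: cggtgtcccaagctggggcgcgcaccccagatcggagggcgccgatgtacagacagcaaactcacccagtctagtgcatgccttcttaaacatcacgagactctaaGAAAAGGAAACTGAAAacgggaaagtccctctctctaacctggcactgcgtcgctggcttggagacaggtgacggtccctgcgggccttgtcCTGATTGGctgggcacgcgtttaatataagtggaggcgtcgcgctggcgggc

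The Y box letters stood at 82 to 75 bases before the start of HLA-DMA, at 56 to 49 bases before those of HLA-B and HLA-C, and at 52 to 45 bases before that of B2M. Of all 35116 RefSeq windows of 300 bases (250 before and 50 after the start), 3.97% held these letters. The letters of the X box core were found in the windows of HLA-DMA and HLA-DPA1, at 216 to 211 and at 99 to 94 bases before the start, and in 12.8% of all windows. CD74 held an inverse CCAAT box at 53 to 49 bases before its start, a short motif that overlaps the Y box and was found in 34.6% of all windows. The kappa B letters were found in the windows of HLA-B and HLA-C and in 0.888% of all windows. B2M held 2 overlapping matches to the interferon-stimulated response element, which 3.57% of all windows held. The windows of HLA-B and HLA-C were 90.9% identical over 296 aligned bases. A match describes the letters of the reference sequence, not a bound site, and the first window of HLA-DPA1 held none of the letters. Variants of the letters and the spacing between boxes were not searched, so a window without a match may still hold a box.

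Levels are given as deposited, in FPKM, fragments divided by transcript length and by a factor of the library, and, where named so, rescaled. Rescaled values were divided by a library factor, the median ratio of a library's genes to their geometric means over all libraries, taken over genes of at least 5 FPKM. The deposited values were nearly level for the 92 ERCC spike-ins, RNAs added in known amounts, with sums of 137820 to 150500 FPKM, while the sums over genes ran from 361700 to 2519600 FPKM. The library factors ran from 0.365 to 2.04, with group means of 1.02 to 1.87 in H929 and 0.420 to 1.17 in MM1S. A deposited difference therefore moves with the sum over genes of its libraries and a rescaled one is relative to the bulk of the genes. The spike-ins scattered most in 2 libraries, MM1S YKL 6 h replicate 2 and MM1S DMSO 24 h replicate 1. Both lines held plasma cell RNA: the 9 plasma cell markers summed to 1760 to 14519 FPKM, and the 8 B cell markers to 1.21 to 3.96 FPKM in H929 and 2.15 to 7.45 FPKM in MM1S. The defining B cell marker MS4A1 (CD20) did not exceed 0.444 FPKM in any library. In each MM1S group 1 of the 8 B cell markers reached a mean of 1 FPKM, and in H929 only with YKL at 6 h. Of the 2 B cell markers past the filter of 1 FPKM in 3 libraries, CR2 was lower in H929 in DMSO as deposited, and 1 was lower rescaled. In H929 with DMSO 0 of the 8 reached a mean of 1 FPKM, so the filter may have set this order. It is given as a description with no test. The monocyte markers summed to 7.47 to 36.5 FPKM in H929 and 0.831 to 5.73 FPKM in MM1S, most of it S100A9 in H929. Their part in the results was not tested.

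Class II transcripts were low in H929, and CD74 and HLA-DRA were abundant in MM1S. CD74, the invariant chain, was measured at 0.617, 1.42 and 2.67 FPKM in the H929 DMSO libraries of 6 h, and at 1.5, 3.68 and 0.916 FPKM in those of 24 h. In the MM1S DMSO libraries it was measured at 486, 486 and 395 FPKM at 6 h, and at 120, 234 and 106 FPKM at 24 h. The highest H929 value of CD74 in any library, 3.68 FPKM, lay far below the lowest MM1S value, 106 FPKM.

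HLA-DRA, the α chain of HLA-DR, followed the same order. Its H929 DMSO libraries held 0.452, 0.330 and 1.77 FPKM at 6 h and 0.831, 2.92 and 0.337 FPKM at 24 h. Its MM1S DMSO libraries held 229, 236 and 162 FPKM at 6 h and 49.3, 115 and 47.5 FPKM at 24 h. Over all 12 libraries of a line HLA-DRA ran from 0.236 to 2.92 FPKM in H929 and from 44.3 to 236 FPKM in MM1S, with no overlap.

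HLA-DPA1, the α chain of HLA-DP, stayed below 1 FPKM in every H929 library, with a range of 0.0737 to 0.489 FPKM. In MM1S it ran from 1.84 to 15 FPKM, with DMSO libraries of 11.7, 12.1 and 12.9 FPKM at 6 h and 4.83, 6.11 and 1.84 FPKM at 24 h. CIITA, the coactivator of class II genes, was also below 1 FPKM in every H929 library, at 0.0724 to 0.258 FPKM. It was low in MM1S too, at 0.616 to 3.47 FPKM, with DMSO libraries of 2.33, 3.47 and 2.03 FPKM at 6 h and 1.12, 1.88 and 1.10 FPKM at 24 h. The H929 values of both genes lay close to the smallest value of the tables, 0.0575 to 0.163 FPKM depending on the library, which 5638 entries shared in each library. The H929 values of HLA-DPA1 and CIITA therefore carry little information on differences within H929.

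HLA-DMA, a chain of the peptide exchange factor HLA-DM, was the class II member whose lines overlapped. Its H929 DMSO libraries held 0.115, 0.332 and 0.933 FPKM at 6 h and 0.741, 0.147 and 1.48 FPKM at 24 h. Its MM1S DMSO libraries held 13.7, 10.0 and 6.49 FPKM at 6 h and 7.74, 9.29 and 3.47 FPKM at 24 h. The DMSO libraries did not overlap, but over all libraries the H929 range of 0.115 to 3.61 FPKM met the MM1S range of 2.50 to 15.9 FPKM.

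**Figure D1:**
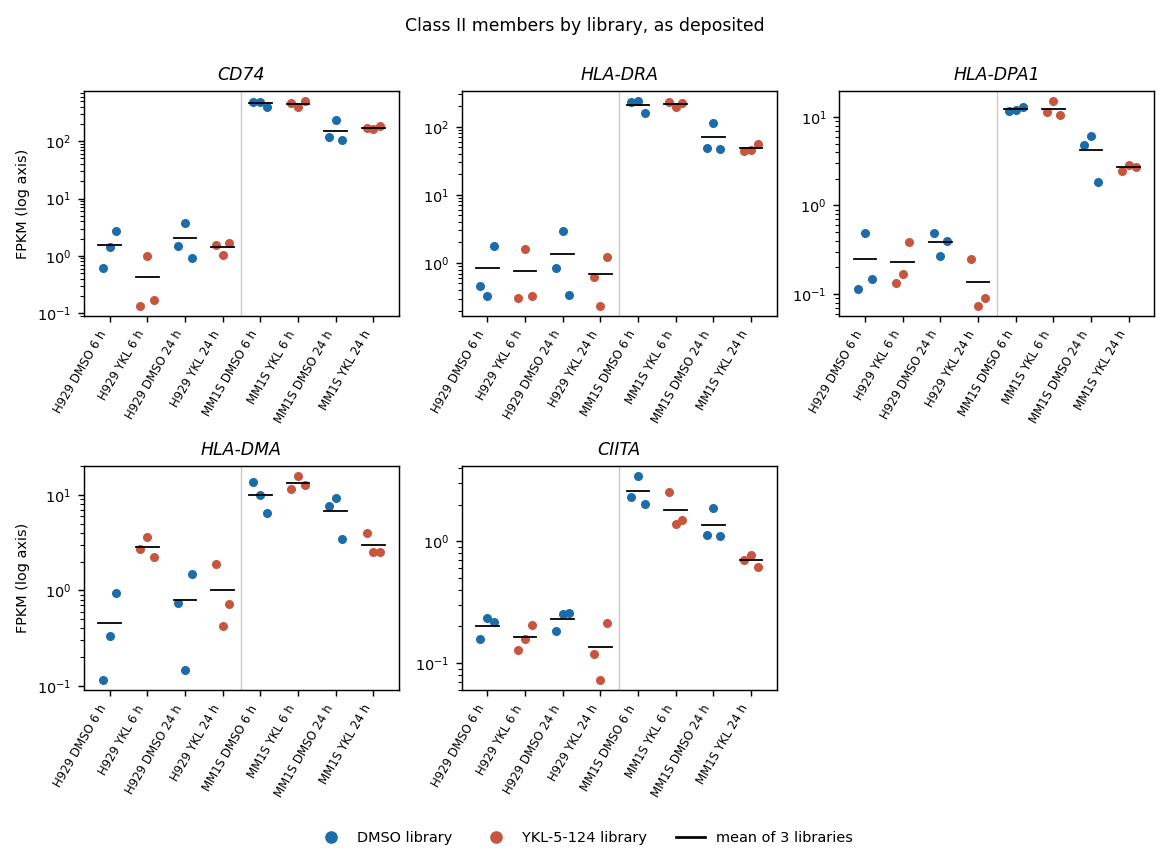
FPKM of the 5 class II members in each of the 24 libraries (log axis), by line, treatment and time, with 1 point per library and a bar at the mean of 3. CD74 and HLA-DRA lie above 40 FPKM in every MM1S library and below 4 FPKM in every H929 library, and HLA-DMA alone overlaps between the lines.

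On the log2(FPKM + 1) scale, where 1 FPKM is added to each value, the difference of H929 minus MM1S in DMSO (6 against 6 libraries, both times together) was −6.62 ± 0.23 (SE) for CD74 and −5.92 ± 0.27 for HLA-DRA. It was −2.62 ± 0.17 for HLA-DPA1, −2.51 ± 0.24 for HLA-DMA and −1.25 ± 0.13 for CIITA. The added 1 FPKM shrinks these differences, most of all for CIITA and HLA-DPA1. In rescaled values they were larger, from −1.6 for CIITA to −7.46 for CD74. The median of the 5 was −2.62 as deposited and −3.08 rescaled, beside 0.71 and −0.18 over the 12418 genes that reached 1 FPKM in 3 or more libraries. All 5 members passed this filter, HLA-DPA1 and CIITA through MM1S alone. In DMSO, 5 of 5 class II members had every H929 library below every MM1S library, as did 4.30% of all genes tested as deposited and 25.0% rescaled. Over all 24 libraries it was 4 of 5, beside 2.85% of all genes. The members were chosen with these levels known, so the counts describe them and test nothing.

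Class I transcripts were present in both lines and differed in direction from gene to gene. HLA-B, a classical heavy chain, was measured at 108, 159 and 149 FPKM in H929 DMSO at 6 h and at 146, 143 and 132 FPKM at 24 h. In MM1S DMSO it was measured at 716, 708 and 685 FPKM at 6 h and at 308, 569 and 276 FPKM at 24 h. HLA-B was thus higher in every MM1S library, with ranges over all libraries of 64.5 to 159 FPKM in H929 and 226 to 716 FPKM in MM1S.

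HLA-C, also a classical heavy chain and a ligand of natural killer cell receptors, had the opposite order. In H929 DMSO it was measured at 595, 744 and 700 FPKM at 6 h and at 663, 764 and 610 FPKM at 24 h. In MM1S DMSO it was measured at 206, 209 and 185 FPKM at 6 h and at 77.7, 158 and 73.7 FPKM at 24 h. No H929 library of HLA-C, at 251 to 764 FPKM, fell into the MM1S range of 73.7 to 209 FPKM. The last 300 bases of the HLA-B and HLA-C transcripts, the part that 3′ reads come from, were 92.3% identical in the reference, and these genes vary between people. The sources used here do not give how the authors' alignment shared reads between them, so the split between HLA-B and HLA-C is uncertain.

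HLA-E, a heavy chain that shows leader peptides of other class I chains to natural killer cells, overlapped between the lines, at 36.8 to 150 FPKM in H929 and 38.0 to 80.3 FPKM in MM1S. B2M, the light chain of every class I molecule, overlapped between the lines as deposited. Its DMSO libraries held 3370, 2995 and 3078 FPKM (6 h) and 3438, 4259 and 3187 FPKM (24 h) in H929. In MM1S they held 5090, 5428 and 5614 FPKM (6 h) and 3157, 4119 and 2085 FPKM (24 h). Over all libraries the ranges of B2M, 2548 to 5127 FPKM in H929 and 2005 to 5614 FPKM in MM1S, overlapped almost fully.

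**Figure D2:**
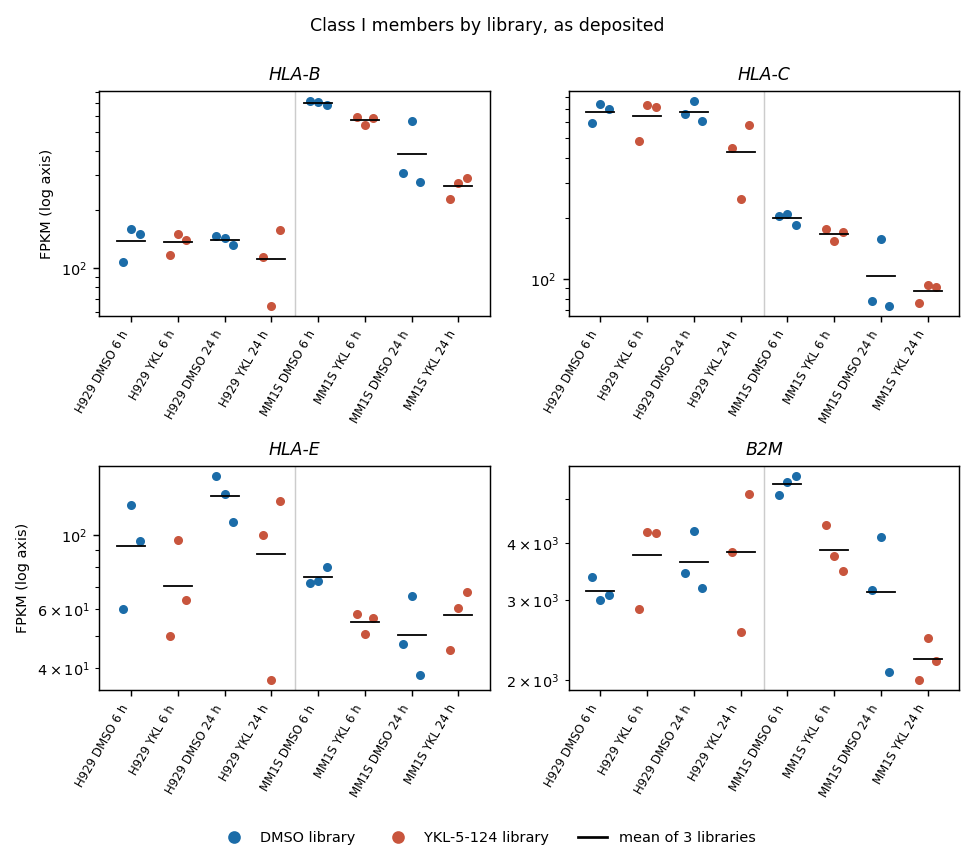
FPKM of the 4 class I members in each of the 24 libraries (log axis), by line, treatment and time, with 1 point per library and a bar at the mean of 3. HLA-B is higher in every MM1S library, HLA-C is higher in every H929 library, and HLA-E and B2M overlap between the lines.

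The log2(FPKM + 1) difference of H929 minus MM1S in DMSO was −1.86 ± 0.20 for HLA-B, 2.27 ± 0.20 for HLA-C, 0.81 ± 0.25 for HLA-E and −0.26 ± 0.19 for B2M. Rescaled, it was −3.09, 1.04, −0.41 and −1.49, so the sign for HLA-E depended on the scaling and B2M became higher in MM1S. The class I median was 0.28 as deposited and −0.95 rescaled. As deposited, HLA-B had every H929 DMSO library below MM1S, as 4.30% of all genes did, and HLA-C had every one above, as 38.6% did. On the rescaled values HLA-B and B2M lay below, as 25.0% of all genes did, and HLA-C above, as 16.1% did.

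Other genes of class II presentation, from lists written with earlier results of these data known, were set beside the members. They were tested between the lines in DMSO with limma's moderated test (two-sided, 1 fit of all 8 group means, p-values adjusted by Benjamini-Hochberg over all 12418 genes), and a gene is called where the adjusted p is below 0.05. As deposited, 61.7% of all genes were called higher and 10.3% lower in H929. Rescaled, 26.6% were higher and 41.1% lower. Of 12 other class II chains, 4 passed the filter. HLA-DRB1, HLA-DPB1 and HLA-DMB passed through MM1S alone, with 0 of 12 H929 libraries at 1 FPKM, so a lower level in H929 was set by the filter and their values are a description with no test. The β chain HLA-DRB1 was measured at 0.0748 to 0.378 FPKM in H929 and 1.69 to 11.6 FPKM in MM1S, a difference of −2.56 ± 0.21. HLA-DPB1, the partner of HLA-DPA1, differed by −1.57 ± 0.16, and HLA-DMB, the partner of HLA-DMA, by −1.74 ± 0.19, with at most 0.277 FPKM in H929. HLA-DOB, a chain of the HLA-DM inhibitor HLA-DO, was higher in H929 as deposited by 0.68 ± 0.23 (limma adjusted p = 0.0111), a call absent after rescaling (−0.05, limma adjusted p = 0.858).

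For the general class II machinery the direction between the lines depended on the scaling. Of the 7 class II promoter factors (the RFX and NF-Y subunits and their partner), 0 were lower in H929 and 3 were higher as deposited, while rescaled 6 were lower and 1 was higher. Of 8 tested genes of class II peptide processing, 4 were higher and 2 lower as deposited, and 2 higher and 5 lower rescaled. IFI30, a lysosomal thiol reductase that unfolds antigens for class II, was higher in H929 by 3.11 ± 0.25 (limma adjusted p = 1.46e-10) and by 1.89 rescaled. Of 9 regulators of CIITA, 7 passed the filter, and 4 were higher and 1 lower as deposited, against 1 and 4 rescaled. The B cell factors PAX5 and SPIB did not pass, and PRDM1 (Blimp-1), the plasma cell repressor of CIITA, was present in both lines at 10.4 to 65.3 FPKM over all libraries. Among 7 genes of interferon gamma signalling, an inducer of CIITA, 3 were higher and 3 lower in H929 as deposited, and 0 and 5 rescaled. IFNGR2, a chain of the interferon gamma receptor, was lower in H929 by −3.86 ± 0.20 (limma adjusted p = 6.41e-14), at 1.03 to 3.31 FPKM against 23.8 to 66.3 FPKM in MM1S, with no overlap in any library.

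In the class I lists, 4 of 7 other chains were tested, with 1 higher and 2 lower in H929 as deposited and 0 and 3 rescaled. HLA-F, a nonclassical chain, was lower in H929 by −1.56 ± 0.22 (limma adjusted p = 8.51e-07). All 6 genes of the immunoproteasome and its activator were higher in H929 as deposited, and rescaled 3 were higher and 1 was lower. PSME2, a subunit of that activator, led them with a difference of 2.85 ± 0.24 (limma adjusted p = 5.44e-10), and 1.62 rescaled. Of 9 genes of peptide transport and loading, 5 were higher and 1 lower as deposited, and 2 higher and 5 lower rescaled. Of 7 class I activators, 4 were higher and 2 lower as deposited, and 1 higher and 5 lower rescaled.

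In the YKL libraries, too, CD74 and HLA-DRA were low in H929 and high in MM1S. In H929 at 6 h CD74 read 0.135, 0.982 and 0.170 FPKM with YKL and at 24 h 1.53, 1.05 and 1.65 FPKM, all within the low range of the line. In MM1S with YKL it read 464, 388 and 494 FPKM at 6 h and 168, 161 and 181 FPKM at 24 h, each set overlapping its DMSO libraries. HLA-DRA with YKL read 0.310, 1.61 and 0.326 FPKM (6 h) and 0.619, 0.236 and 1.23 FPKM (24 h) in H929. In MM1S it read 229, 193 and 220 FPKM (6 h) and 44.3, 44.8 and 55.6 FPKM (24 h). Neither gene was called in any of the 4 comparisons of YKL with DMSO, on either scale. Each change is given below on the log2(FPKM + 1) scale, first as deposited and then rescaled, with limma's adjusted p. Where a call is said to hold in a number of other settings, these include leaving out libraries of groups not compared. Such a setting moves only the shared spread, so the settings are not independent checks.

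In H929 at 6 h, HLA-DMA was the member that rose. It read 2.74, 3.61 and 2.22 FPKM with YKL against 0.115, 0.332 and 0.933 FPKM with DMSO, so the groups did not overlap. The change was 1.42 ± 0.34 (limma adjusted p = 0.0262) as deposited and 1.16 ± 0.28 (limma adjusted p = 0.0131) rescaled. As deposited, 1.03% of all genes were called higher and 1.16% lower, and rescaled 5.11% and 4.19%. The call as deposited was lost without H929 DMSO replicate 1 or 2 and without any 1 of the YKL libraries (lowest change 1.25, and a largest adjusted p over all settings of 0.103). The rescaled call was lost without H929 DMSO replicate 2 or YKL replicate 1 or 2 (largest adjusted p over all settings 0.0571). By 24 h HLA-DMA read 1.89, 0.428 and 0.725 FPKM with YKL against 0.741, 0.147 and 1.48 FPKM with DMSO, overlapping values with a change of 0.17.

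The other class II members changed by −0.82 ± 0.33 (CD74, limma adjusted p = 0.227), −0.08 (HLA-DRA), −0.02 (HLA-DPA1) and −0.05 (CIITA) in H929 at 6 h, none called. The class I members changed by −0.02 (HLA-B), −0.09 (HLA-C), −0.39 (HLA-E) and 0.24 (B2M), none called as deposited. B2M passed the threshold after rescaling, at 2211, 2309 and 2316 rescaled FPKM with YKL against 2075, 1464 and 1578 with DMSO (0.43 ± 0.14, limma adjusted p = 0.0491). That call held in 6 of 29 other settings on the rescaled scale, and without H929 DMSO 6 h replicate 2 the adjusted p was 0.243.

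In H929 at 24 h the direction of class I depended on the scaling. HLA-C read 450, 251 and 585 FPKM with YKL, all below the DMSO values of 663, 764 and 610 FPKM, and fell by 0.74 ± 0.29 as deposited (limma adjusted p = 0.0455). Rescaled, HLA-C read 414, 374 and 449 against 385, 394 and 373, a change of 0.10 (limma adjusted p = 0.389). As deposited, 35.4% of all genes were called lower and 2.67% higher at this time, and the median of all genes was −0.46, beside 0.13 rescaled. The HLA-C call held in 7 of 31 other settings. Without H929 YKL 24 h replicate 2 the change was −0.40 (adjusted p = 0.314) and without replicate 3 it was −1.01 (adjusted p = 0.00996).

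B2M and HLA-B rose in H929 at 24 h only after rescaling, where 20.8% of all genes were called higher and 12.5% lower. B2M read 3815, 2548 and 5127 FPKM with YKL against 3438, 4259 and 3187 with DMSO as deposited, overlapping values with a change of 0.03. Rescaled, B2M read 3516, 3796 and 3934 with YKL against 1995, 2196 and 1950 with DMSO, with no overlap (0.87 ± 0.14, limma adjusted p = 4.86e-05). HLA-B read 115, 64.5 and 158 FPKM against 146, 143 and 132 as deposited (−0.41, limma adjusted p = 0.261), and 106, 96.1 and 121 against 85.0, 73.6 and 81.0 rescaled, again with no overlap (0.42 ± 0.10, limma adjusted p = 0.00255). Both rescaled calls held in 29 of 29 other settings on that scale. HLA-E, at 100, 36.8 and 126 FPKM with YKL against 150, 132 and 109 with DMSO, changed by −0.73 as deposited (limma adjusted p = 0.104) and 0.10 rescaled. The class II members other than HLA-DMA changed by −0.12 to −0.37 as deposited, none called on either scale.

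In MM1S at 6 h, 0 of 9 members were called as deposited by limma, and 0 had an unadjusted p under 0.05. Among all genes, 0.926% were called higher and 10.0% lower. The changes ran from −0.48 for B2M to 0.42 for HLA-DMA. B2M read 4371, 3752 and 3465 FPKM with YKL, each below its DMSO libraries, and HLA-B read 593, 541 and 589 FPKM, each below its DMSO libraries of 685 to 716 FPKM. Rescaled, 5 of 9 members had an unadjusted p under 0.05 by limma. The rescaled median was 0.45 for class II and 0.10 for class I, beside 0.05 over all genes. The rescaled change of B2M was −0.01 and that of HLA-B was 0.18. On that scale HLA-DMA rose, from 11.2, 8.12 and 6.26 to 12.8, 20.0 and 15.6 rescaled FPKM (0.86 ± 0.28, limma adjusted p = 0.0452), where 8.25% of all genes were called higher and 7.21% lower. The HLA-DMA call held in 15 of 29 other settings on that scale, with a change of 0.68 (adjusted p = 0.178) without MM1S DMSO 6 h replicate 3.

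In MM1S at 24 h, 0 of 9 members were called as deposited by limma, and 2 had an unadjusted p under 0.05. Among all genes, 0.684% were called higher and 6.77% lower. CIITA read 0.707, 0.779 and 0.616 FPKM with YKL, each below its DMSO libraries of 1.12, 1.88 and 1.10 FPKM (−0.46, limma adjusted p = 0.131). After rescaling CIITA fell, from 2.52, 2.33 and 3.01 to 1.80, 1.87 and 1.37 (−0.43 ± 0.14, limma adjusted p = 0.0225), where 13.3% of all genes were called lower and 14.4% higher. On that scale 4 of 9 members had an unadjusted p under 0.05 by limma. The CIITA call was lost without MM1S DMSO 24 h replicate 3 or YKL 24 h replicate 3 (for the latter −0.35, adjusted p = 0.0998). It was also lost with only the groups compared (adjusted p = 0.170), with no filter (0.0719) and with 0.1 FPKM added in place of 1 (0.0851).

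The other class II members were not called in MM1S at 24 h on either scale. HLA-DMA read 3.97, 2.50 and 2.50 FPKM with YKL against 7.74, 9.29 and 3.47 with DMSO (−0.91, limma adjusted p = 0.114, and −0.75 rescaled, limma adjusted p = 0.054). CD74 changed by 0.24 as deposited and by 0.51 rescaled (limma adjusted p = 0.0525), with rescaled values of 428, 387 and 401 all above those with DMSO, 269, 289 and 291. HLA-DRA and HLA-DPA1 changed by −0.42 and −0.41 as deposited and by −0.15 and −0.19 rescaled. Without MM1S DMSO 24 h replicate 3, HLA-DPA1 (−0.80, adjusted p = 0.0063) and HLA-DMA (−1.27, adjusted p = 0.0144) were called lower as deposited. The class I members changed by −0.47 (HLA-B), −0.16 (HLA-C), 0.21 (HLA-E) and −0.44 (B2M) as deposited, and by −0.20, 0.11, 0.49 and −0.16 rescaled, none called.

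**Figure D3:**
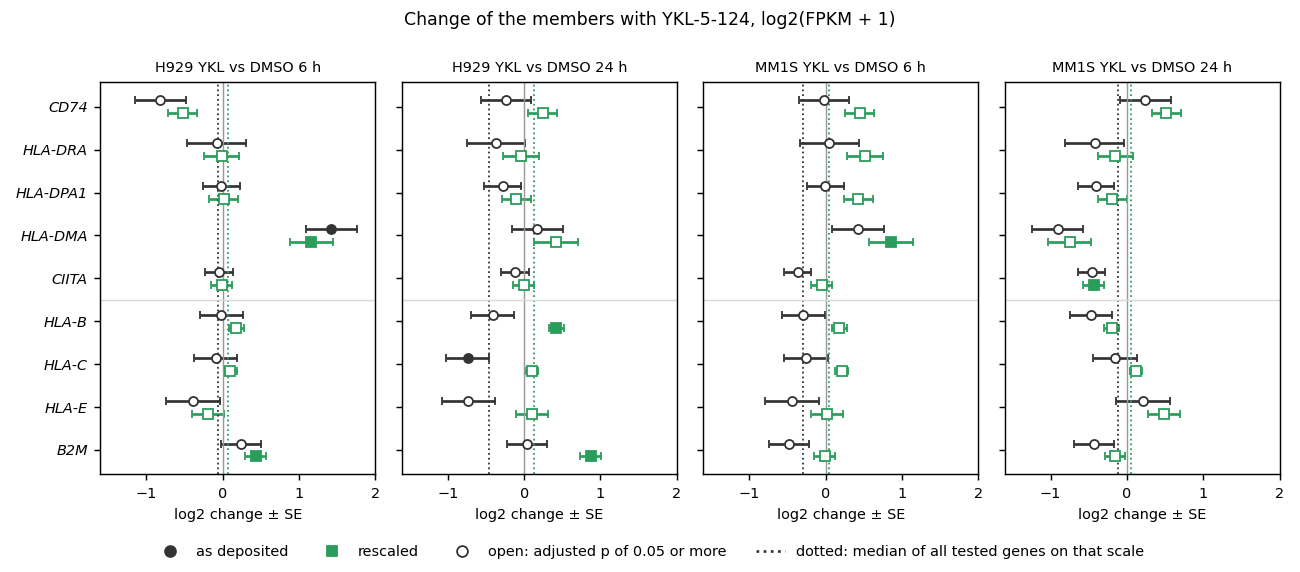
Change of each member with YKL (log2(FPKM + 1), YKL minus DMSO, ± SE, 3 against 3 libraries) in the 4 comparisons, as deposited (circles) and rescaled (squares), with filled symbols for an adjusted p below 0.05 and dotted lines at the median of all genes. As deposited HLA-DMA in H929 at 6 h and HLA-C in H929 at 24 h are filled. For the 4 class I members the rescaled change is above the deposited one in all 4 comparisons. The mean library factor is lower with YKL than with DMSO in each, and division by it raises the change of any well-expressed gene.

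The differences between the responses of the lines were tested as interactions. At 6 h 0 of 9 members were called on either scale by limma (1 with an unadjusted p under 0.05 as deposited and 2 rescaled), beside 0.137% of all genes higher and 0.0322% lower as deposited, and 0.725% and 0.411% rescaled. At 24 h 0 of 9 were called as deposited (1 with an unadjusted p under 0.05), beside 0.290% of all genes higher and 1.07% lower. After rescaling B2M (1.03 ± 0.19, limma adjusted p = 0.00172) and HLA-B (0.62 ± 0.14, limma adjusted p = 0.00707) had a more positive change in H929 than in MM1S, beside 8.04% of all genes called higher and 4.32% lower. These 2 values held in 29 of 29 other settings on the rescaled scale. Between 6 and 24 h the responses of H929 gave 0 calls among the members on either scale (1 and 2 with an unadjusted p under 0.05), beside 0.290% of all genes higher and 6.18% lower as deposited, and 5.77% and 4.66% rescaled. For MM1S there were 0 calls as deposited (1 with an unadjusted p under 0.05), beside 0.0322% of all genes higher and 0.0483% lower, and 1 rescaled, HLA-DMA (−1.61 ± 0.40, limma adjusted p = 0.0128), beside 6.28% of all genes lower and 4.30% higher. The HLA-DMA difference was lost without the 2 libraries with scattered spike-ins and with 0.1 FPKM added in place of 1 (largest adjusted p over all settings 0.162).

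In MM1S with DMSO the deposited values of most members were lower at 24 h than at 6 h, and the mean library factor was 0.539 at 24 h and 1.17 at 6 h, so time and the library sets cannot be told apart. At 24 h, 7 of 9 members were called lower, beside 56.0% of all genes (0.258% higher). CD74 fell by 1.65 ± 0.33 (limma adjusted p = 0.000438), HLA-DRA by 1.66 ± 0.38 (limma adjusted p = 0.0013) and HLA-DPA1 by 1.43 ± 0.24 (limma adjusted p = 0.000144). HLA-C, HLA-B, B2M and CIITA fell by 1.04, 0.94, 0.84 and 0.61, and HLA-DMA (−0.53) and HLA-E (−0.60) were not called. The median of all genes was −0.74. Leaving out 1 library ended the call for CIITA (MM1S DMSO 6 h replicate 2) and for HLA-B and B2M (MM1S DMSO 24 h replicate 3, with a largest adjusted p over all settings of 0.142 for B2M). After rescaling 0 of 9 were called by limma (5 with an unadjusted p under 0.05), beside 10.3% of all genes higher and 5.39% lower. CD74, HLA-DRA and HLA-DPA1 remained negative, at −0.46, −0.48 and −0.44, and the other 6 members were positive, at 0.14 to 0.58. H929 in DMSO gave 0 calls among the members by limma on either scale (0 and 1 with an unadjusted p under 0.05), beside 0.105% of all genes higher and 0.0403% lower as deposited, and 0.644% and 0.378% rescaled. The comparison of times in DMSO shares its libraries with the comparisons of YKL with DMSO.

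Among the other genes of the 2 pathways, HLA-F, HLA-DMB and IFI30 fell with YKL in MM1S at 24 h on both scales. Of the 4 other class I chains tested, 0 were higher there and 1 was lower as deposited, against 0 and 2 rescaled. Of the 4 other class II chains tested, 0 were higher and 1 was lower on each scale. Of all genes, 0.684% were higher and 6.77% lower as deposited, and 14.4% and 13.3% rescaled. HLA-F read 17.3, 18.3 and 16 FPKM in MM1S with DMSO at 6 h and 8.24, 7.87 and 4.63 FPKM with YKL, and 9.50, 13.8 and 4.76 FPKM against 3.31, 3.62 and 2.74 FPKM at 24 h. The groups did not overlap at either time. It fell by 1.23 ± 0.30 at 6 h (limma adjusted p = 0.0127) and by 1.20 at 24 h (limma adjusted p = 0.0152), and by 0.81 and 1.04 rescaled. The 6 h call was lost without MM1S YKL 6 h replicate 3 (−1.0, adjusted p = 0.083), and its rescaled counterpart also without any 1 of the DMSO libraries. The 24 h call as deposited was lost without MM1S DMSO 24 h replicate 1 or 2 or YKL 24 h replicate 1 or 3 (−0.89, adjusted p = 0.0995, without DMSO replicate 2).

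HLA-DMB, the partner of HLA-DMA, read 2.39, 3.06 and 1.75 FPKM in MM1S with DMSO at 24 h and 0.786, 0.260 and 0.491 FPKM with YKL. It fell by 1.17 ± 0.26 (limma adjusted p = 0.00637) and by 1.37 rescaled, and the call held in 31 of 31 other settings. At 6 h its libraries overlapped, at 3.42, 1.89 and 5.52 FPKM with DMSO and 1.67, 2.66 and 5.42 FPKM with YKL. IFI30 read 27.0, 45.0 and 21.4 FPKM in MM1S with DMSO at 24 h and 4.44, 8.03 and 9.61 FPKM with YKL, a fall of 1.93 ± 0.35 (limma adjusted p = 0.000861) and 1.74 rescaled, held in 31 of 31 other settings. In H929 at 24 h IFI30 read 362, 341 and 284 FPKM with DMSO and 179, 79.7 and 196 FPKM with YKL. It fell by 1.21 as deposited (limma adjusted p = 0.0091) but was not called rescaled (−0.37, limma adjusted p = 0.153) or without H929 YKL 24 h replicate 2 (−0.80, adjusted p = 0.0951). Of the 8 tested genes of class II peptide processing, 0 were higher and 1 was lower in MM1S at 24 h as deposited. Rescaled, 3 were higher and 2 lower. In H929 at 24 h, 0 were higher and 3 lower as deposited, beside 2.67% and 35.4% of all genes. Rescaled, 4 were higher and 0 lower there, beside 20.8% and 12.5%.

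TAP2, a subunit of the transporter that carries peptides to class I, read 28.8, 35.4 and 23.2 FPKM in H929 with DMSO at 24 h and 11.5, 8.35 and 14.1 FPKM with YKL. It fell by 1.30 (limma adjusted p = 0.000831) and by 0.50 rescaled (limma adjusted p = 0.00889), where the call was lost without H929 DMSO 24 h replicate 2 (−0.42, adjusted p = 0.0503). Its partner TAP1 had the opposite sign after rescaling, and was chosen for mention after its values were seen. In rescaled values TAP1 read 17.7, 18.5 and 18.2 in H929 with DMSO at 24 h and 33.7, 33.3 and 33.2 with YKL, a rise of 0.85 (limma adjusted p = 4.71e-05). In MM1S at 24 h it read 19.2, 29.6 and 29.3 with DMSO and 56.6, 45.3 and 57.6 with YKL, a rise of 1.02 (limma adjusted p = 6.88e-06). At 6 h the rescaled rises of TAP1 were 0.48 (H929, limma adjusted p = 0.0246) and 0.50 (MM1S, limma adjusted p = 0.0144), with largest adjusted p over all settings of 0.106 and 0.0601. They were lost in H929 without DMSO 6 h replicate 2 or 3 or any 1 of the YKL libraries, and in MM1S without replicate 2 of DMSO or of YKL. As deposited, TAP1 was not called in any of the 4 comparisons. Of the 9 genes of peptide transport and loading, 0 were higher and 5 lower in H929 at 24 h as deposited, beside 2.67% and 35.4% of all genes. Rescaled, 4 were higher and 3 lower, beside 20.8% and 12.5%. In MM1S at 24 h 0 were called as deposited, and 2 were higher and 1 was lower rescaled, beside 14.4% and 13.3% of all genes.

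Of the 6 genes of the immunoproteasome and its activator, 6 were called lower in H929 at 24 h as deposited and 2 rescaled, beside 35.4% and 12.5% of all genes, with list medians of −1.09 and −0.26 beside −0.46 and 0.13 for all genes. PSMB8, a catalytic subunit, read 163, 180 and 139 FPKM with DMSO and 83.6, 53.5 and 99.0 FPKM with YKL. It fell by 1.06 (limma adjusted p = 0.00254), and rescaled the change was −0.23 (limma adjusted p = 0.122). PSME2 read 987, 922 and 816 FPKM with DMSO and 449, 174 and 498 FPKM with YKL, a fall of 1.41 (limma adjusted p = 0.00284) and of 0.57 rescaled (limma adjusted p = 0.0348). The rescaled call of PSME2 was lost without H929 DMSO 24 h replicate 1 or 3 or YKL 24 h replicate 2 (largest adjusted p over all settings 0.209). In MM1S at 24 h 1 of the 6 genes was called lower as deposited and 2 rescaled, beside 6.77% and 13.3% of all genes. PSMB8 read 60.1, 102 and 50.7 FPKM there with DMSO and 35.7, 32.3 and 38.9 FPKM with YKL. It fell by 0.91 as deposited (limma adjusted p = 0.0279) and by 0.65 rescaled (limma adjusted p = 0.00015). The deposited call of PSMB8 in MM1S was lost without DMSO replicate 2 (−0.62, adjusted p = 0.133) or any 1 of the YKL libraries, while the rescaled one held in 29 of 29 settings.

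**Figure D4:**
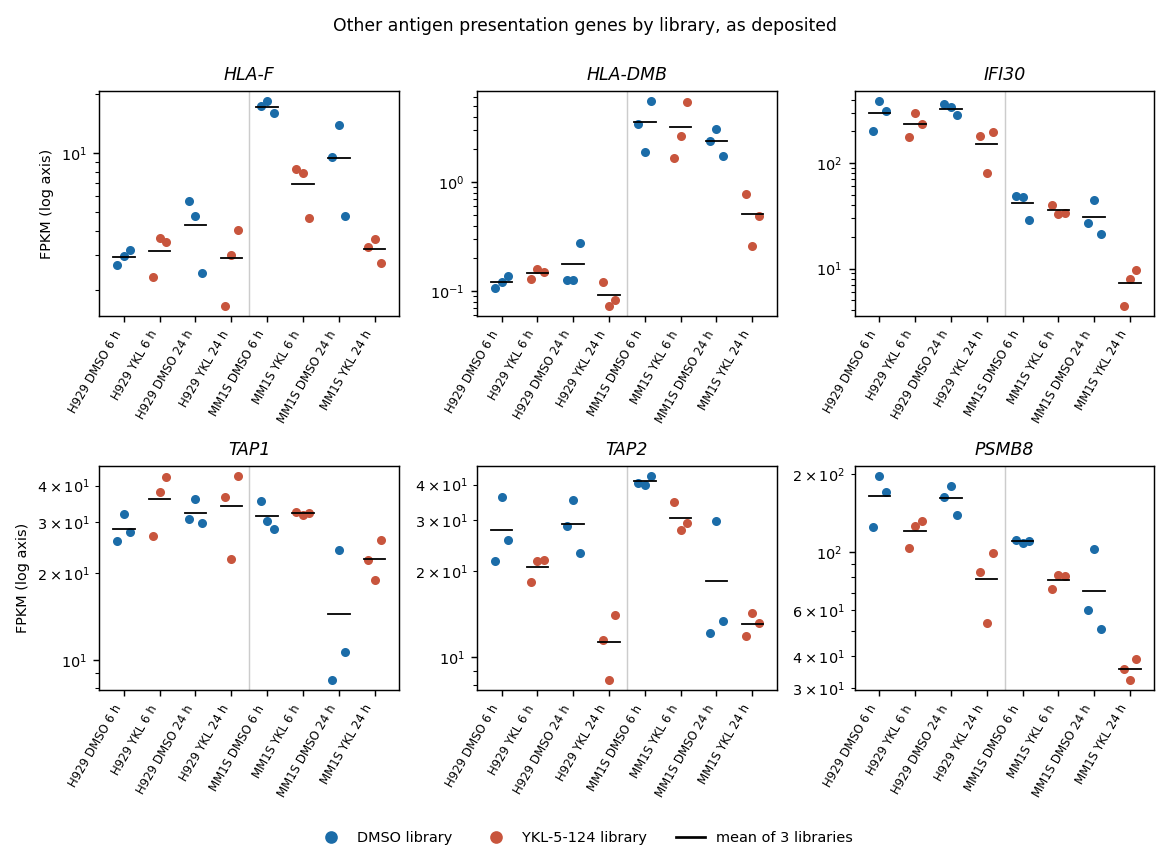
FPKM of HLA-F, HLA-DMB, IFI30, TAP1, TAP2 and PSMB8 in each of the 24 libraries (log axis), by line, treatment and time, with 1 point per library and a bar at the mean of 3. In MM1S at 24 h the YKL libraries of HLA-F, HLA-DMB, IFI30 and PSMB8 lie below all DMSO libraries, and TAP2 does so in H929 at 24 h.

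Of 7 class II promoter factors, 2 were lower in MM1S at 6 h as deposited and 1 rescaled, beside 10.0% and 7.21% of all genes. RFXAP, a subunit of the RFX complex that binds the X box, read 3.34, 2.48 and 1.63 FPKM with DMSO and 1.06, 0.588 and 0.367 FPKM with YKL. It fell by 1.05 (limma adjusted p = 0.0102) and by 0.80 rescaled (limma adjusted p = 0.0302), and the deposited call was lost without MM1S DMSO 6 h replicate 1 or YKL 6 h replicate 3 (largest adjusted p over all settings 0.0679). The rescaled call was also lost without replicate 2 of DMSO or of YKL (largest adjusted p over all settings 0.122). In H929 at 6 h, 0 of the 7 promoter factors were called, and at 24 h 3 were lower as deposited, beside 35.4% of all genes. Rescaled, 0 were lower and 2 were higher, beside 12.5% and 20.8% of all genes.

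In interferon gamma signalling, 1 of 7 genes was higher in H929 at 24 h as deposited and 6 rescaled, beside 2.67% and 20.8% of all genes. In MM1S at 24 h 1 was higher as deposited and 3 rescaled, beside 0.684% and 14.4% of all genes, and 0 were lower in either line. JAK1, a kinase of the receptor, read 4.28, 4.50 and 3.69 FPKM in H929 with DMSO at 24 h and 7.04, 5.85 and 8.74 FPKM with YKL. It rose by 0.66 (limma adjusted p = 0.0229) and by 1.30 rescaled, and the deposited call was lost without H929 DMSO 24 h replicate 3 or YKL 24 h replicate 3 (largest adjusted p over all settings 0.101). SOCS1, an inhibitor of that signalling, read 0.752, 2.57 and 1.18 FPKM in MM1S with DMSO at 24 h and 4.60, 5.40 and 3.37 FPKM with YKL, with no overlap. It rose by 1.17 (limma adjusted p = 0.0306) and by 1.66 rescaled (limma adjusted p = 0.000345), and the deposited call was lost without DMSO replicate 1 or 3 or YKL replicate 1 or 2 (largest adjusted p over all settings 0.151). Of 7 class I activators, 1 was lower as deposited in H929 at 24 h (35.4% of all genes), and rescaled 4 were higher in each line at 24 h (20.8% of all genes in H929 and 14.4% in MM1S).

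The genes most like CD74 across the 24 libraries were QPCT, LAPTM5 and IL2RG, each with a Pearson r of 0.996 on log2(FPKM + 1) among 5044 genes with a mean of at least 10 FPKM. QPCT ran from 0.136 to 2.01 FPKM in H929 and 54.6 to 183 FPKM in MM1S, and IL2RG, the shared γ chain of several interleukin receptors, from 0.125 to 1.25 and 21.1 to 91.7 FPKM. LAPTM5, a lysosomal protein of blood cells, ran from 1.35 to 10.3 and 179 to 874 FPKM. Each of these correlations is set by the 2 lines and the shared libraries. For B2M the most like genes were ARF5 (r = 0.903), FDFT1 (0.893) and PDDC1 (0.883), over libraries that share their deposited scaling.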

How the data were processed

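Total RNA of H929 and MM1S cells (8 groups of 3 libraries, 24 in all) was read from transcript 3′ ends with QuantSeq, per the labels' protocols. The authors deposited FPKM values per gene for each library. HISAT2, Cuffnorm and the build hg19 are named in the submitters' processing notes, without versions, and how the values were scaled is not given in the sources used here. FPKM divides by transcript length, which does not suit 3′ reads. Sums over markers, and words such as low or abundant, are therefore only rough guides between genes. The deposited tables give no read counts, so library depth is unknown and counting error has no interval here. Of 26341 entries, 92 were spike-ins, and 12418 of the 26249 genes reached 1 FPKM in at least 3 libraries and were tested. The 0 unused columns and 0 identical pairs of libraries left all 24 libraries in use.

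Samples were grouped by the labels. Values were fitted as log2(FPKM + 1) with limma 3.58.1 in R 4.3.3 (empirical Bayes with an intensity trend, 1 fit of 8 group means, two-sided, Benjamini-Hochberg adjustment over 12418 genes, calls at an adjusted p below 0.05). The fold changes understate the change of low genes. There were 10 comparisons with tests of the members and 1 line comparison tested for other genes only. The fit was tested on simulated data. Alternatives were median-of-ratios rescaling, spike-in rescaling, a pseudocount of 0.1 FPKM, no filter, only the groups compared, a replicate block, leaving out the 2 libraries with scattered spike-ins, and leaving out each library. Libraries of all 8 groups were left out in turn, also those of groups not compared. The factors of the spike-in rescaling ran from 0.971 to 1.06, so that setting changed the values little. The same settings on rescaled values were added after seeing the data. The members, the gene lists and the tests were chosen with earlier results of these data known. All members were described, and of each list the counts and up to 4 called genes with the smallest p could be named. CD74 and B2M were each given the 3 genes with the highest Pearson r. Transcript ends were compared in the GENCODE annotation given, over their last 300 bases.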

Additional observations from a re-analysis of the deposited data

Results flagged for a closer look

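Rescaled by median of ratios, changes with YKL at 24 h were compared between the lines by limma's interaction test (H929 minus MM1S, log2(FPKM + 1)). Looked at here were the members and HLA-F, HLA-DMB, IFI30, TAP1, TAP2, PSMB8 and PSME2, picked from the lists. Of these, 2 members and 3 other genes were called. The full lists held more calls. Class II peptide processing had 3 higher, IFI30 included. Class II promoter factors, peptide transport and loading, and interferon gamma signalling had 1 higher each. The immunoproteasome list had 1 lower. B2M differed by 1.03 and HLA-B by 0.62. HLA-F differed by 1.25, HLA-DMB by 1.36 and IFI30 by 1.37, each with a fall in MM1S. HLA-DMB was at 1 FPKM in 0 of 12 H929 libraries and could not fall there, so its difference restates the fall in MM1S. The call of HLA-F held in 23 of 29 other settings on that scale (largest adjusted p over all settings 0.0883). That of HLA-DMB held in 16 of 29 (largest adjusted p over all settings 0.104). Both were lost on leaving out any 1 of several libraries, and without the 2 libraries with scattered spike-ins. HLA-F was also lost with only the groups compared, and HLA-DMB with no filter and with 0.1 FPKM added in place of 1. None of these 5 named genes was tested for its cause, and 8.04% of all genes were called higher and 4.32% lower in the same test.

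Among the same picked genes, the change with YKL differed between 24 and 6 h in MM1S, rescaled, for HLA-DMA (−1.61), HLA-DMB (−1.58), IFI30 (−2.01) and PSMB8 (−0.63). Of all genes, 6.28% were called lower and 4.30% higher. The full lists also had 1 lower in peptide transport and loading. Higher were 1 of the regulators of CIITA, 2 class I activators and 1 gene of interferon gamma signalling. Both HLA-DM chains were more negative at the later time. The call of HLA-DMB was lost without MM1S DMSO 6 h replicate 2, YKL 6 h replicate 3 or YKL 24 h replicate 2 (largest adjusted p over all settings 0.146). Without the 2 libraries with scattered spike-ins the calls of both HLA-DMB (limma adjusted p = 0.0547) and HLA-DMA (limma adjusted p = 0.0710) were lost. With only the groups compared, those of HLA-DMB and PSMB8 (limma adjusted p = 0.0643) were lost.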

How the results depend on the processing

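The scaling of the libraries moved the members' results most. Under median-of-ratios rescaling the count of members called became 2 for H929 at 6 h (from 1), 2 for H929 at 24 h (from 1), 1 for MM1S at 6 h, 1 for MM1S at 24 h, 2 for the line difference at 24 h and 1 for the time difference in MM1S (from 0 each), and 0 for MM1S DMSO between times (from 7). It turned the sign in H929 at 6 h of HLA-DPA1 (0.012), HLA-B (0.18) and HLA-C (0.10), in H929 at 24 h of CD74 (0.24), HLA-B (0.42), HLA-C (0.10) and HLA-E (0.10), in MM1S at 6 h of CD74 (0.45), HLA-DPA1 (0.43), HLA-B (0.18), HLA-C (0.21) and HLA-E (0.021), and in MM1S at 24 h of HLA-C (0.11). In MM1S DMSO between times it turned HLA-DMA (0.53), CIITA (0.17), HLA-B (0.25), HLA-C (0.14), HLA-E (0.58) and B2M (0.36), and between the lines HLA-DOB (−0.047). The cause was not tested. With only the groups compared, the counts were 0 for H929 at 6 h, 0 for H929 at 24 h, 2 for MM1S at 6 h and 3 for MM1S DMSO between times. With no filter they were 0 for H929 at 6 h and 0 at 24 h, with spike-in rescaling 0 for H929 at 24 h, and without the 2 libraries with scattered spike-ins 0 for H929 at 24 h, where CD74 in MM1S at 6 h was 0.078. The replicate block left 0 members for H929 at 24 h (HLA-C, adjusted p = 0.0569) and moved no other member count. Samples with the same replicate number correlated at −0.13 to 0.19, with no comparison in which every pair was over 0.1, so the numbers were not taken as pairs.

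Leaving out 1 library gave 0 to 1 members for H929 at 6 h, 0 to 2 for H929 at 24 h and 0 to 2 for MM1S at 24 h. Signs near 0 turned for H929 at 6 h in HLA-DRA (−0.41 to 0.25), HLA-DPA1 (−0.10 to 0.12), HLA-B (−0.19 to 0.088) and HLA-C (−0.20 to 0.10), and at 24 h in CD74 (−0.51 to 0.13), HLA-DRA (−0.70 to 0.074), HLA-DMA (−0.12 to 0.45) and B2M (−0.21 to 0.30). In MM1S they turned at 6 h in CD74 (−0.12 to 0.078), HLA-DRA (−0.12 to 0.15) and HLA-DPA1 (−0.15 to 0.084), at 24 h in HLA-C (−0.35 to 0.19), and in the line difference of HLA-B at 24 h (−0.26 to 0.41). Of 2376 values without 1 library 2229 kept their direction and side of the threshold, as did 550 of 631 under other settings. Each library of all 8 groups was left out in turn. Where it belonged to none of the groups compared, the change stayed the same and only the shared spread moved, so its direction could not turn. The share kept therefore does not measure how robust the directions are. Depth is unknown, so levels near the floor, as of class II in H929, limit what differences there can be seen.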
